A study of Mus musculus with 4 samples.

Results

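Insulin signalling in the liver runs from the receptor at the cell surface through its docking proteins to PI3-kinase and the kinase AKT, and ends for many genes at the FOXO transcription factors. When the pathway is active, AKT phosphorylates FOXO proteins, which then leave the nucleus. When it is inactive, as in fasting, nuclear FOXO proteins drive genes of glucose production. FOXO proteins also act on the docking protein gene *Irs2*, which closes a feedback loop onto the receptor.

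The 9 genes described here were chosen by symbol, with earlier results of these data known. They are *Insr*, *Irs1*, *Irs2*, *Pik3r1*, *Akt2*, *Foxo1*, *Foxo3*, *Trib1* and *Tsc22d3*, out of 20642 gene symbols in the deposited table. All 9 were active, as were 12705 symbols in all, where active means that reads lay near the promoter and that the mean gene body density exceeded 4 normalized reads per kb. Each of the 9 had 1 transcript in the table.

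The values come from PRO-seq (precision nuclear run-on sequencing), which reads the RNA held by engaged polymerases in isolated nuclei. Whole livers of C57BL/6 mice were taken on postnatal day 14. Both groups carried *Alb-Cre*, a Cre recombinase under the albumin promoter, which is used to target hepatocytes. WT mice were *Hdac3* +/+ and KO mice were *Hdac3* fl/fl or fl/-, so the KO pools may mix 2 genotypes, and other liver cells were outside the reach intended for the Cre. *Hdac3* encodes a histone deacetylase that works in corepressor complexes. Each library held 20000000 nuclei pooled from 9 mice, with 2 libraries per genotype (WT1, WT2, KO1 and KO2).

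Between 16628518 (KO2) and 26190040 (WT2) reads lay on genes in the 4 libraries. Gene body values of *Hdac3* itself were 665 and 648 normalized reads in WT1 and WT2, and 609 and 582 in KO1 and KO2. The log2 fold change was -0.14 ± 0.13 (SE; adjusted p = 0.413, limma). These values sum reads over the whole gene, so they do not single out the deleted part and do not check the labels. The labelled tissue was checked with hepatocyte markers, all of which had polymerase in every library (summed gene body density from 9152 to 24957 normalized reads per kb).

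Before the values, the promoter sequences of the docking protein genes are shown, because they carry a combination of short motifs that few other mouse promoters hold. In the RefSeq promoter table (GRCm38.p6, the build of the deposited files), 7 of the 9 genes had an entry and *Insr* and *Trib1* did not. The 250 bases upstream of each start were searched on both strands for 3 motifs. They were the E-box CACGTG, the insulin response element TGTTTTG, which FOXO proteins can bind, and the FOXO site TGTTTAC. The sequences below run 5′ to 3′ on the strand of the gene and end at the base before its start, with matches to the first 2 motifs in capitals. The *Irs1* window lies at chr1:82291440-82291689 (minus strand) and the *Irs2* window at chr8:11008930-11009179 (minus strand).
Irs1: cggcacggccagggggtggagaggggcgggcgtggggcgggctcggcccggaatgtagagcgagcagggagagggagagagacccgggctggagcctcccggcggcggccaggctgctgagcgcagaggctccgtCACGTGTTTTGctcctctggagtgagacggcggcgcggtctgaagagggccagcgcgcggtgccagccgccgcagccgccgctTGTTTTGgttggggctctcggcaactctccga
Irs2: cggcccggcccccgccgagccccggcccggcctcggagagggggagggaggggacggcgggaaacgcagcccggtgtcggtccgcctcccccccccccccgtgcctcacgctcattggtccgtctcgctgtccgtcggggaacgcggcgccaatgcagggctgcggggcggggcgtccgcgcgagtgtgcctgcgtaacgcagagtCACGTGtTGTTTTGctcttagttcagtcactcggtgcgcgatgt

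In *Irs1*, the E-box at -115 to -110 overlapped an insulin response element at -111 to -105, and a further element lay at -32 to -26, counted from the start. In *Irs2*, the E-box at -44 to -39 was followed after 1 base by an element at -37 to -31. The *Irs2* start used here is RefSeq's, and GENCODE places that of the deposited transcript 471 bp downstream. The deposited distance from *Irs2* to its upstream enhancer is 139387 bp, against 138888 bp from the start used here. These *Irs2* positions thus need not count from the start behind the deposited values. Of 32851 promoter windows, 6.02% held the E-box, 5.56% the insulin response element and 3.17% the FOXO site. Both of the first 2 motifs occurred together in 97 windows (0.295%), and with their starts at most 12 bases apart in 7 windows (0.0213%) of 7 genes. These genes were *Irs1*, *Irs2*, *Irs4*, *Klf11*, *Pcbp1*, *Pyroxd1* and *1700019P21Rik*, so that 3 of the 7 encode insulin receptor substrates. The exact arrangement CACGTGNTGTTTTG, on either strand, was found in 2 of the 32851 windows, those of *Irs2* and *Irs4*. The stretch around it in *Irs4* (chrX:141725333-141725396, minus strand) is shown for comparison with *Irs2*.
Irs4: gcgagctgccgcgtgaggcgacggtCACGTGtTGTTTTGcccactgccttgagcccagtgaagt

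The limit of 12 bases and the spaced arrangement were chosen after the sequences were seen, so these counts are descriptions. *Irs4*, a docking protein gene of other tissues, is listed at 0 in all 4 libraries at both regions. None of the 3 motifs occurred in the windows of *Foxo1*, *Foxo3*, *Pik3r1*, *Akt2* or *Tsc22d3*, which says only that these letters were absent there.

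For every gene the table gives a promoter-proximal value, the read count of the busiest 50 bp stretch close to the start, and a gene body value, which counts reads from 1 kb past the start to the gene's end. Both are normalized reads, the read counts multiplied by 1 factor per library. The first marks polymerase near the promoter and the second marks elongating polymerase. KO and WT were compared with limma on log2(value + 1) over the 12705 active genes. A gene was called where the Benjamini-Hochberg adjusted p was under 0.05 and the absolute log2 fold change was over 0.6. All fold changes below are KO over WT on this scale, with their standard errors and with 2 libraries per group. Nothing says that the pools were made from separate litters or sessions, so the spread behind the p-values is that between these pools. Standard errors and p-values do not rest on a gene's own pools alone. Limma draws the variance of each gene towards that of active genes at similar levels. An exact permutation test of 2 against 2 libraries cannot give a p below 0.33.

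Gene body polymerase was lower in KO at 4 of the 9 genes and higher at none. The 4 genes were *Irs2*, *Foxo1*, *Tsc22d3* and *Irs1*. No gene was higher at an unadjusted p under 0.05, and edgeR and DESeq2 on the recovered reads also gave 4 lower and 0 higher. Among all active genes, 11.4% were called lower and 10.4% higher with limma. Without the fold threshold, limma called 7 of the 9 lower and 0 higher, and 39.1% of active genes in either direction. Both KO libraries lay below both WT libraries at 8 of the 9 genes, with *Trib1* as the exception, against 42.8% of active genes. None of the 9 had both KO libraries above both WT libraries, against 27.6% of active genes. The median gene body log2 fold change was -0.40 over the 9 genes and -0.09 over all active genes. In the same comparison 6 hepatocyte markers had a median of -1.47, and their part in these results was not tested.

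Near the promoter, *Trib1* and *Pik3r1* were called higher in KO and no gene was called lower, against 25.8% and 2.2% of active genes. With edgeR and DESeq2 on the recovered reads the 2 calls were also made, and no gene was lower at an unadjusted p under 0.05 with any of the 3 tools. Both KO libraries lay above both WT libraries at *Trib1*, *Pik3r1* and *Akt2* (61.9% of active genes), and at none of the 9 did both lie below (6.72%). The median log2 fold change was 0.16 over the 9 genes and 0.56 over active genes, of which 15.8% had a value below 0. Relative to that median of 0.56, *Trib1* stood at 0.81 and *Pik3r1* at 0.18, and the other 7 genes stood from -0.66 to -0.21.

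**Figure D1:**
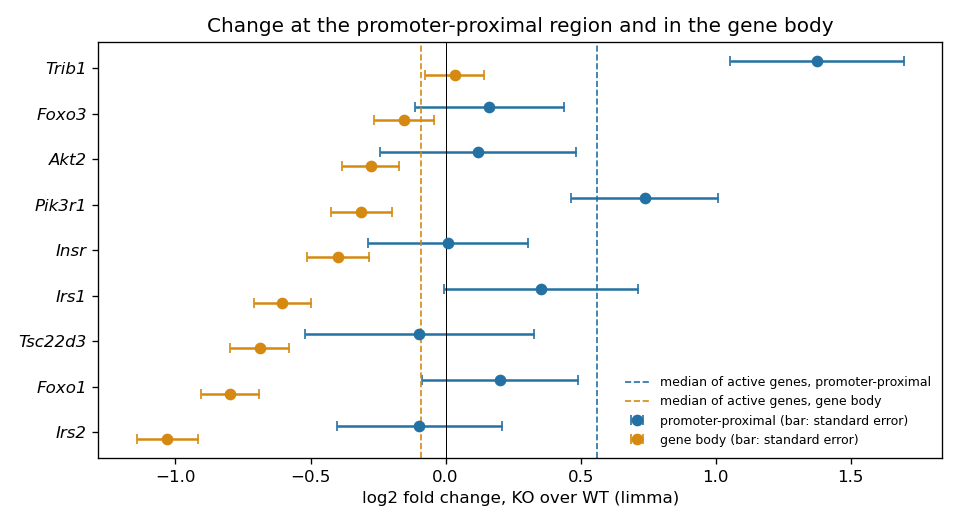
Log2 fold change (KO over WT, horizontal axis) of the 9 genes at the promoter-proximal region (blue) and in the gene body (orange), with bars for the standard error and dashed lines for the medians of 12705 active genes (0.56 and -0.09). Gene body points run from -1.03 at Irs2 to 0.03 at Trib1, and only the promoter-proximal points of Trib1 and Pik3r1 lie right of their dashed line.

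*Insr* encodes the insulin receptor, a tyrosine kinase (chr8:3150922-3279649, minus strand, 21 exons in RefSeq). Its gene body held 11913 and 9927 normalized reads in WT1 and WT2, and 8531 and 7971 in KO1 and KO2. Both KO libraries were below both WT libraries, and the difference of -0.40 ± 0.12 had an adjusted p of 0.00770 (limma) but did not reach the fold threshold. Promoter-proximal values were 556 and 404 in WT and 372 and 610 in KO. These overlapped fully, with one KO library below and the other above both WT libraries (log2 fold change 0.01 ± 0.30).

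*Irs1* and *Irs2* encode the docking proteins that the receptor phosphorylates and that recruit PI3-kinase. *Irs2* (chr8:10984681-11008929, minus strand) had the largest gene body change of the 9. Its gene body held 7523 and 8070 normalized reads in the WT libraries, and 4188 and 3475 in the KO libraries. The KO mean was thus 0.490 of the WT level (log2 fold change -1.03 ± 0.11, adjusted p = 1.31e-07, limma), and the 4 single KO to WT comparisons ran from -1.22 to -0.84. Its promoter-proximal values were 352 and 351 in WT, and 259 and 418 in KO. The KO libraries thus lay on either side of a nearly equal WT pair (-0.10 ± 0.30, adjusted p = 0.814, limma).

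*Irs1* (chr1:82233105-82291439, minus strand) held 3677 and 3918 normalized reads in its gene body in WT, and 2529 and 2466 in KO. The groups did not overlap and the call was made by a narrow margin of size (-0.60 ± 0.11, adjusted p = 7.46e-05, limma). Without WT2 the value was -0.56, without KO2 -0.59 and with gene bodies scaled to their own median ratio -0.52, all short of the fold threshold though not of the p threshold. Promoter-proximal values were 76.9 and 58.0 in WT and 67.9 and 108 in KO, which overlapped.

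*Pik3r1* (chr13:101680761-101768217, minus strand) encodes a regulatory subunit of PI3-kinase, and its 2 regions gave values on opposite sides of 0. Promoter-proximal values were 1730 and 1464 normalized reads in WT1 and WT2, and 2398 and 2933 in KO1 and KO2. The KO libraries lay above the WT libraries (0.74 ± 0.27, adjusted p = 0.0301, limma). Gene body values were 13843 and 14941 in WT, and 12155 and 11047 in KO. Here the KO libraries lay below (-0.31 ± 0.11, adjusted p = 0.0314, limma), by less than the fold threshold. RefSeq places 1 further start of *Pik3r1* within the gene body, 75587 bp downstream of the first. The promoter-proximal call was lost when any 1 library was left out (limma, adjusted p from 0.0545 without KO1 to 0.365 without WT2) and when promoter-proximal regions were scaled to their own median (adjusted p = 0.694, log2 fold change 0.17).

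*Akt2* (chr7:27591552-27640826, plus strand) encodes the AKT kinase that prevails in insulin-responsive tissues. In the gene body its replicates were the closest of the 9 genes. It held there 3562 and 3612 normalized reads in WT and 2976 and 2945 in KO (-0.28 ± 0.11, adjusted p = 0.0413, limma). This was a non-overlapping difference short of the fold threshold. Promoter-proximal values of 70.0 and 67.0 in WT and 73.2 and 75.9 in KO also did not overlap, with a difference of 0.12 ± 0.36 that did not pass the test. RefSeq places 3 further starts of *Akt2* within its gene body, from 5278 to 15784 bp downstream of the first.

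*Foxo1* and *Foxo3* encode FOXO transcription factors, of which *Foxo1* fell in the gene body and *Foxo3* was not called. *Foxo1* (chr3:52268337-52350109, plus strand) held 12851 and 12210 normalized reads in WT and 7273 and 7141 in KO. Its KO mean was 0.575 of the WT level (-0.80 ± 0.11, adjusted p = 2.40e-06, limma), and the single KO to WT comparisons lay between -0.85 and -0.75. *Foxo3* (chr10:42181845-42276695, minus strand) held 10178 and 8763 in WT and 8358 and 8622 in KO. Its KO libraries were below the WT libraries by less than the WT libraries differed from each other (-0.15 ± 0.11, adjusted p = 0.294, limma). Promoter-proximal values of *Foxo1* were 685 and 539 in WT and 572 and 853 in KO, and those of *Foxo3* were 1176 and 1468 in WT and 1531 and 1412 in KO. Both sets overlapped, with log2 fold changes of 0.20 ± 0.29 and 0.16 ± 0.28.

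The ratio of 2 related genes within a library does not depend on how the libraries were scaled. *Foxo3* gene body density was 0.711 and 0.644 of that of *Foxo1* in WT1 and WT2, and 1.03 and 1.08 in KO1 and KO2. In WT more polymerase per kb lay on *Foxo1*, and in KO slightly more lay on *Foxo3* (log2 ratio 0.64 higher in KO). *Irs2* density was 5.73 and 5.77 times that of *Irs1* in WT, and 4.64 and 3.95 times in KO (log2 ratio, KO minus WT, -0.43). In both pairs the KO libraries lay on 1 side of the WT libraries, which gives the smallest p that the exact two-sided permutation test allows (p = 0.333, n = 2 per group).

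*Trib1* (chr15:59648654-59657099, plus strand) encodes a pseudokinase that hands C/EBPα to the COP1 ubiquitin ligase. It showed the largest promoter-proximal change and no gene body change that passed the test. Promoter-proximal values were 112 and 122 normalized reads in WT1 and WT2, and 303 and 307 in KO1 and KO2. The WT pair and the KO pair were each tight and far apart (1.37 ± 0.32, adjusted p = 0.000463, limma), with a KO level of 2.59 times the WT level. Gene body values were 3171 and 3561 in WT and 3318 and 3570 in KO, which overlapped (0.03 ± 0.11, adjusted p = 0.829, limma). The promoter-proximal call was lost when WT1 (limma, adjusted p = 0.0719) or WT2 (limma, adjusted p = 0.0572) was left out, and it held under both scalings within regions.

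*Tsc22d3* (chrX:140539528-140600522, minus strand) encodes GILZ, a leucine zipper protein known for its induction by glucocorticoids. Its gene body held 5948 and 5715 normalized reads in WT and 3434 and 3809 in KO. The groups did not overlap (-0.69 ± 0.11, adjusted p = 1.61e-05, limma) and the KO mean was 0.620 of the WT level. Promoter-proximal values were low and overlapped, at 26.4 and 19.0 in WT and 15.9 and 27.3 in KO. The deposited transcript is the long isoform, with a gene body of 59994 bp. RefSeq places further starts 51951 and 57854 bp downstream of the first, so reads near those starts count as gene body of the long isoform.

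Per length, the gene bodies covered a wide range. Mean WT density was 452 normalized reads per kb at *Trib1*, 381 at *Irs2*, 166 at *Pik3r1*, 155 at *Foxo1*, 105 at *Foxo3*, 97.2 at *Tsc22d3*, 85.5 at *Insr*, 76.5 at *Akt2* and 66.2 at *Irs1*. In WT, only the neighbours *Foxo3* and *Tsc22d3* overlapped between libraries. In KO the densities were 463 at *Trib1*, 187 at *Irs2*, 134 at *Pik3r1*, 94.4 at *Foxo3*, 89.2 at *Foxo1*, 64.6 at *Insr*, 63.1 at *Akt2*, 60.4 at *Tsc22d3* and 43.6 at *Irs1*. There *Insr*, *Akt2* and *Tsc22d3* overlapped as neighbours. From WT to KO, *Foxo3* passed from rank 5 to rank 4 and *Tsc22d3* from rank 6 to rank 8. Over all libraries, *Trib1* and *Irs2* lay at the 99.1th and 97.8th percentile of active genes in gene body density. *Tsc22d3* lay at the 15.9th percentile in promoter-proximal reads but at the 80.6th in gene body density.

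**Figure D2:**
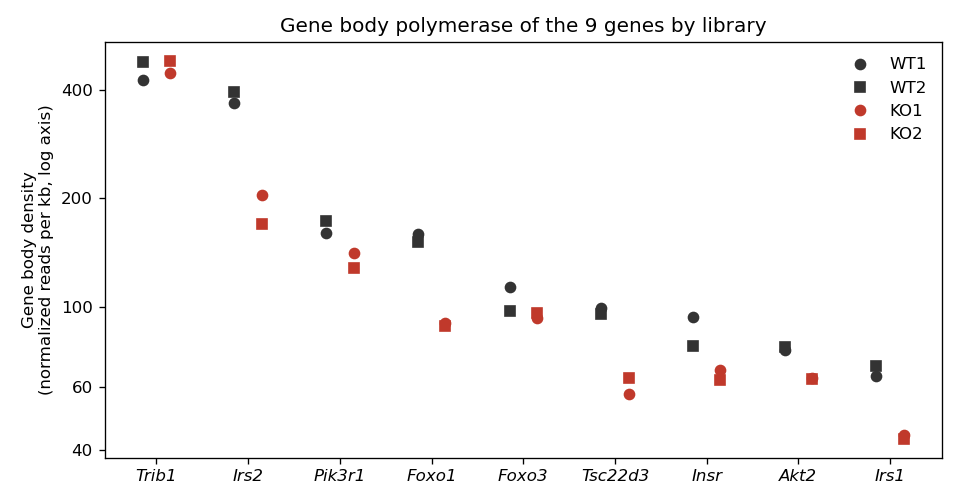
Gene body density (normalized reads per kb, log axis) of the 9 genes in WT1 and WT2 (black) and KO1 and KO2 (red), ordered by the WT mean. The KO points lie below the WT points at 8 genes, most widely at Irs2 (381 to 187 in the means), and overlap them at Trib1 (452 to 463).

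The pausing index sets promoter-proximal reads per bp against gene body reads per bp. It was called higher in KO at *Trib1* and *Pik3r1* and lower at none of the 9, against 12.4% and 0.519% of active genes. The index of *Trib1* was 5.33 and 5.14 in WT and 13.7 and 12.8 in KO (log2 change 1.34 ± 0.46, adjusted p = 0.0381, limma). At *Pik3r1* it was 216 and 170 in WT and 341 and 459 in KO (1.05 ± 0.37, adjusted p = 0.0429, limma). All 9 genes had a log2 change above 0 in the main setting, where only 11.2% of active genes had one below 0. With scaling within regions *Insr*, *Foxo3*, *Akt2* and *Tsc22d3* lay below 0. The median of the 9 genes in the main setting was 0.93, beside 0.61 for active genes. *Foxo1*, *Irs1* and *Irs2* had changes of 0.998, 0.96 and 0.93 that did not pass the test (adjusted p = 0.0621, 0.0938 and 0.104, limma). The index was low at *Trib1* and *Tsc22d3* (4.86 in the WT mean of the latter) and high at *Foxo3* (255) and *Pik3r1* (193). Both calls were lost with a pseudocount of 0.1, with scaling within regions, and without WT1, WT2 or KO2. The adjusted p of *Trib1* was then 0.335, 0.601 and 0.111 without these libraries in turn, and that of *Pik3r1* was 0.340, 0.612 and 0.150. Without KO1, 5 of the 9 genes were called higher, as the share of active genes called in either direction went from 12.9% to 42.2%.

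The wider pathway was described by lists of 72 further genes, of which 70 were active. In the gene body 3 of the 70 rose and 14 fell (10.4% and 11.4% of active genes), with a median log2 fold change of -0.17 beside -0.09 for all active genes. Near the promoter 19 rose and 6 fell (25.8% and 2.2% of active genes), with a median of 0.43 beside 0.56. The promoter-proximal counts leaned on single libraries and on scaling. Without WT2 or KO2, 3 genes were called and without WT1 7, while the share of all active genes called went from 28.0% to 4.69%, 3.16% and 6.27% in these settings. Of the 25 promoter-proximal calls, 23 were lost when 1 or other of the 4 libraries was left out, and those of *G6pc* and *Pck1* were not. With scaling within regions 0 rose and 12 fell.

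Among the receptors and adaptors, *Igf1r*, the receptor for insulin-like growth factors, rose in the gene body. Its density was 10.2 and 11.0 normalized reads per kb in WT and 20.9 and 18.7 in KO (0.90 ± 0.11, adjusted p = 5.18e-07, limma), while that of *Insr* was lower in both KO libraries. The docking protein gene *Gab1* rose near the promoter (0.92 ± 0.31), and the other 4 genes of the list were called in neither region. Of 6 genes for PI3-kinase subunits and PDK1, only *Pik3r3*, another regulatory subunit, was called. It rose in both regions (0.88 ± 0.27 and 1.09 ± 0.14), from 4.38 and 4.95 to 10.2 and 9.68 normalized reads per kb in the gene body. *Pik3r1* had a higher gene body density than *Pik3r3* in all 4 libraries. Stellate and endothelial markers rose in the same comparison (medians 1.30 and 0.68), and their part in the rises of *Igf1r* and *Pik3r3* was not tested.

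Of 14 genes of AKT and mTOR signalling, *Akt1*, *Mtor*, *Rheb* and *Mlst8* rose near the promoter (1.02 ± 0.39, 0.80 ± 0.32, 0.88 ± 0.32 and 0.87 ± 0.31), a count near the share of 25.8% of active genes. None of the 14 rose in the gene body (10.4% of active genes). *Deptor*, an inhibitor of mTOR, fell there from 68.5 and 53.6 to 37.0 and 35.7 normalized reads per kb (-0.74 ± 0.12), and was short of the fold threshold without WT1 (-0.56).

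Among 14 phosphatases and inhibitors of the pathway, 3 fell in the gene body and none rose (11.4% and 10.4% of active genes). *Grb14*, an adaptor that inhibits the insulin receptor, fell from 68.7 and 60.5 to 23.1 and 21.5 normalized reads per kb (-1.53 ± 0.11, adjusted p = 2.24e-10, limma). *Socs2*, a suppressor of cytokine and growth hormone signalling, fell from 204 and 253 to 99.6 and 91.8 (-1.25 ± 0.14). *Enpp1* fell as well (-0.75 ± 0.12). Near the promoter 7 of the 14 rose and 1 fell (25.8% and 2.2% of active genes). Those that rose include *Inppl1* (0.94 ± 0.32), a lipid phosphatase, and *Socs1* (1.18 ± 0.35). *Grb14* fell (-1.20 ± 0.42), from 25.2 and 56.0 to 12.7 and 19.7 normalized reads. This last call was not made with DESeq2, and was lost without WT2 (-0.64), KO1 (-0.90) or KO2 (-1.49).

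Of 7 genes for FOXO partners, which hold *Foxo4*, *Foxo6*, 14-3-3 proteins and *Sirt1*, 5 were active. The 14-3-3 gene *Ywhaz* was left out because it had no promoter-proximal reads in any library. Its gene body density was 159 and 167 normalized reads per kb in WT and 200 and 179 in KO. None of the 5 was called in the gene body with limma, edgeR or DESeq2, nor had any an unadjusted p under 0.05. *Foxo4* and *Ywhae* rose near the promoter (0.84 ± 0.32 and 0.91 ± 0.29), where 25.8% of active genes did.

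Of 20 genes listed as FOXO targets, 8 fell in the gene body and none was called higher (11.4% and 10.4% of active genes), with a median log2 fold change of -0.44. The glucose production genes of the list fell in both regions. *G6pc*, the glucose-6-phosphatase gene, had a gene body density of 2633 and 2808 normalized reads per kb in WT and 974 and 844 in KO (-1.58 ± 0.12, adjusted p = 2.86e-10, limma). *Pck1*, which encodes phosphoenolpyruvate carboxykinase, had 10447 and 12405 in WT and 3819 and 3801 in KO (-1.58 ± 0.13). *Igfbp1*, which encodes a binding protein of insulin-like growth factors, had 6605 and 5378 in WT and 2727 and 2601 in KO (-1.16 ± 0.12). Near the promoter, all 3 fell as well, with log2 fold changes from -1.51 to -1.39, and the call of *Igfbp1* was lost without KO2 (limma, adjusted p = 0.0539).

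The coactivator gene *Ppargc1a* showed the largest fall of the list, from 75.1 and 73.0 to 17.9 and 13.7 normalized reads per kb (-2.24 ± 0.12, adjusted p = 3.73e-12, limma). The transcription factor gene *Klf15* followed (-1.61 ± 0.11), and *Sesn3*, *Gadd45b* and *Apoc3* fell by less (-1.11, -0.999 and -0.79). Near the promoter 5 of the 20 genes fell and 3 rose (2.2% and 25.8% of active genes). *Ppargc1a* (-1.26 ± 0.33) and *Klf15* (-0.84 ± 0.31) fell there beside *Igfbp1*, *G6pc* and *Pck1*. *Txnip*, which encodes an inhibitor of thioredoxin, rose there (1.01 ± 0.27), and so did *Cdkn1b*, a cell cycle inhibitor gene (0.92 ± 0.30), and *Bcl6* (1.11 ± 0.30). In the gene body these 3 were not called (0.50, -0.0029 and -0.37). *Sesn1*, *Pdk4* and *Fbxo32*, textbook FOXO targets too, had gene body log2 fold changes between -0.17 and 0.10 that did not pass the test. Of 18 of these genes with a RefSeq promoter entry, the insulin response element stood in the windows of *Igfbp1*, *G6pc* and *Ccng2*, 16.7% of them beside 5.56% of all windows. The FOXO site stood in that of *Txnip* (5.56% beside 3.17%), and the E-box in those of 5 genes (27.8% beside 6.02%), *Gadd45b*, *Bcl6*, *Klf15*, *Cited2* and *Bnip3*. The 18 windows were 1 per active gene, whereas all 32851 windows covered 27025 genes, active or not. The shares are thus over unlike sets, and enrichment was not tested.

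Among insulin-induced genes, *Srebf1*, which drives lipid synthesis, fell in the gene body from 258 and 317 to 141 and 172 normalized reads per kb (-0.88 ± 0.12) but rose near the promoter (0.89 ± 0.30). *Pnpla3* was not called in either region. Of the 2 partners of *Trib1*, *Cebpa* fell in the gene body (-0.79 ± 0.13), and *Rfwd2*, which encodes COP1, was not called.

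*Tsc22d3* was set beside 9 genes of the glucocorticoid response. In the gene body 6 of them fell and none was called higher (11.4% and 10.4% of active genes), with a median of -0.87. *Mt1* had 5309 and 1544 normalized reads per kb in WT and 710 and 489 in KO, a fall of -2.27 ± 0.32 that was -1.38 without WT1. *Zbtb16* fell as well (-1.82 ± 0.11), *Fkbp5* fell by 0.87 and *Klf9* by 0.86 on the log2 scale, and *Tat* and *Per1* fell too (*Per1* by -0.96, or -0.63 without WT2). The receptor gene *Nr3c1* had a log2 fold change of -0.30 ± 0.12, and *Sgk1*, which encodes a kinase related to AKT, had one of 0.46 ± 0.12 (95.2 and 108 in WT, 147 and 131 in KO), both short of the fold threshold. Near the promoter 3 fell and none rose (2.2% and 25.8% of active genes). Neither *Fkbp5* nor *Klf9* was among them (0.11 ± 0.29 and 0.04 ± 0.29). *Tsc22d3* was not called there either, but its value covers only the start of the long isoform, and its further starts downstream were not measured as promoters.

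Markers of liver cell types moved with genotype, and their part in the results above was not tested. In bulk libraries, fewer cells of a type and less polymerase per cell cannot be told apart. Of 6 hepatocyte markers, 5 fell in the gene body, where 11.4% of active genes fell and 10.4% rose. The summed density of the 6 was 22064 and 24957 normalized reads per kb in WT and 9337 and 9152 in KO. All 7 stellate cell markers rose (104 and 126 in WT, 310 and 291 in KO), as did 4 of 6 endothelial markers (802 and 830 in WT, 1399 and 1293 in KO). The call of *Des* was lost without KO1 or KO2 and its value went from 1.30 to 0.77 without WT1, and the call of *Lyve1* was lost without WT1 (0.55) or KO1 (0.49). None of 6 Kupffer and myeloid markers was called in the gene body with limma, edgeR or DESeq2, and 3 were higher at an unadjusted p under 0.05 (812 and 863 in WT, 1027 and 877 in KO). Of 5 erythroid markers in the table, 4 fell (114 and 126 in WT, 45.6 and 42.5 in KO), and of 5 cholangiocyte markers, 3 were active and *Sox9* fell (27.7 and 38.0 in WT, 28.4 and 26.7 in KO for the sum). *Hbb-b1* was at 0 in the gene body in KO2, and no other marker of these lists was at 0 there in any library.

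**Figure D3:**
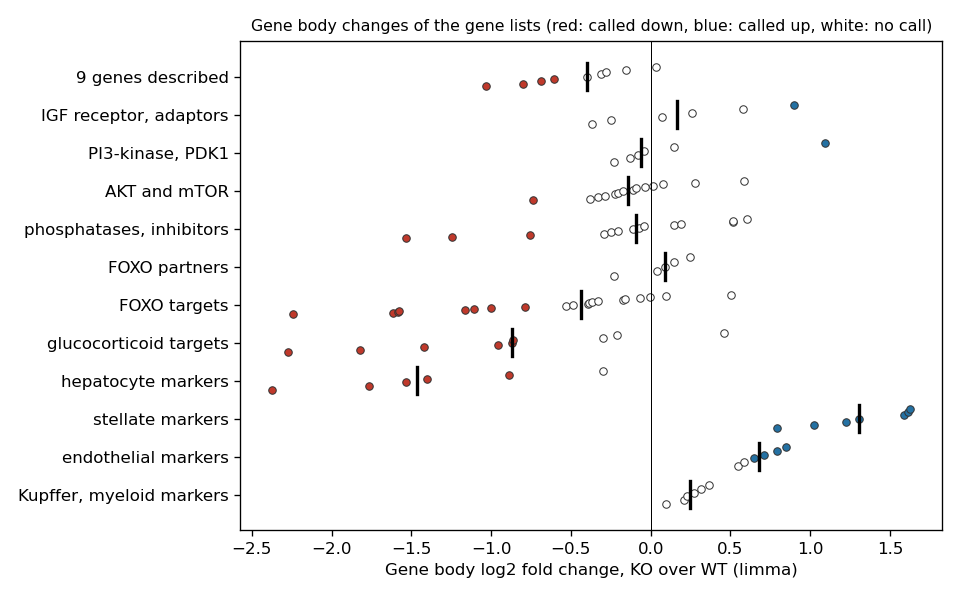
Gene body log2 fold change (KO over WT, horizontal axis) of the active genes of 12 lists, with each point a gene, a black bar at each list's median, and colour for called genes (red lower, blue higher). The medians run from -1.47 for hepatocyte markers to 1.30 for stellate markers, with -0.40 for the 9 genes described and -0.44 for the FOXO targets.

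The active genes most like 8 of the 9 were found from 8 values, the log2(value + 1) of 4 libraries at both regions after centring each region on the gene's own mean. The nearest to *Foxo1* was *Tmem63b* (distance 0.157), the nearest to *Irs2* was *Itih2* (0.159) and the nearest to *Irs1* was *Tbccd1* (0.140). *Insr* was nearest to *Car8* (0.0999), *Foxo3* to *Sepp1* (0.170), *Akt2* to *Chd2* (0.108) and *Tsc22d3* to *Myh14* (0.134). *Trib1* was nearest to *Pdzrn3* at 0.207, the widest of these gaps. Among the 9 themselves, *Foxo1* and *Irs1* were the closest pair (0.282).

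The deposited enhancer list holds 2282 intergenic transcribed enhancers, called from the reads of all 4 libraries together. It gives the closest gene of each and no values of single libraries. The paper states that enhancers were assigned only to genes it took as active, so inactive genes may lie nearer. For 16 of the enhancers the closest gene was *Foxo1*, *Trib1*, *Tsc22d3* or *Irs2*. *Foxo1* had 8, a number that 11 of 1380 closest genes reached, where the median was 1 and the maximum 12. One of the 8 lay 68213 bp upstream of the start and the other 7 lay downstream, from 132488 to 353596 bp from the start and thus beyond the gene's end. None of the 8 was in FANTOM5, a catalogue of enhancers known from capped RNA.

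*Trib1* had 4 enhancers, all downstream, at 30857, 36049, 78885 and 456870 bp from the start. The nearest were chr15:59679511-59681906 and chr15:59684703-59686530. *Tsc22d3* had 3 within a stretch from 89846 to 97635 bp downstream of the start of the long isoform, of which 1 was in FANTOM5. *Irs2* had 1 as its closest gene, 138888 bp upstream of the RefSeq start (139387 bp as deposited), and another within 50 kb on the downstream side (chr8:10964673-10966956). No listed enhancer had *Insr*, *Irs1*, *Foxo3*, *Pik3r1* or *Akt2* as its closest gene. The list holds intergenic sites, so enhancers within genes were outside its scope.

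**Figure D4:**
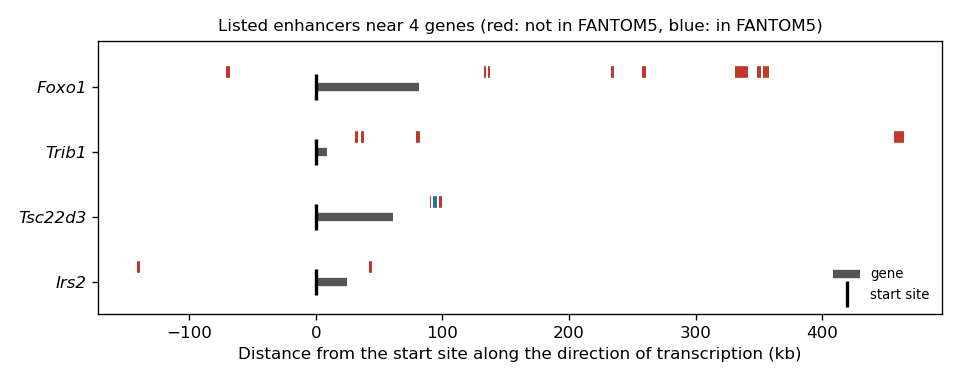
Positions of listed enhancers relative to the start site of 4 genes (horizontal axis, kb along the direction of transcription), with grey bars for the genes and coloured blocks for enhancers whose closest gene it is or that lie within 50 kb (red not in FANTOM5, blue in FANTOM5). Of the 8 blocks of Foxo1, 7 lie beyond the gene's end, and all 4 of Trib1 lie downstream.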

How the data were processed

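The authors used cutadapt for trimming, Bowtie2 for alignment to mm10 and NRSA for counting, after discarding poorly mapped and ribosomal reads. The deposited WT2 values are read counts, because the authors' factor for this library is 1. The deposited values of WT1, KO1 and KO2 are a normalized signal, in which each count was scaled by a factor of its library (1.15, 1.06 and 1.52), and the densities are signal per bp. Division by the factor gave whole reads for 100% of values within 0.001. Groups and replicate numbers came from the labels. The deviations of same-numbered libraries from their group means had r = -0.11 (promoter-proximal) and 0.02 (gene body) over 12705 genes, and the libraries were not treated as pairs.

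Where a symbol had several transcripts, the one highest in mean promoter-proximal reads was used (20820 transcripts, 20642 symbols). Log2(value + 1) was compared with limma 3.58.1 (trend, empirical Bayes) under R 4.3.3, and p-values were adjusted over the active genes by the Benjamini-Hochberg method. The thresholds of the study for promoter-proximal regions, an adjusted p of 0.05 and a log2 fold change of 0.6, were used for all measures. Alternatives used edgeR 4.0.16 and DESeq2 1.42.0 on the recovered reads, pseudocounts of 0.1 and 10, other activity filters, other scalings, another transcript choice, no fold threshold, a block for the replicate number, and leaving out single libraries. The steps were tested on simulated data. Gene coordinates and promoters are RefSeq's for GRCm38.p6. These coordinates need not be the spans behind the deposited values. At *Foxo3*, *Akt2* and *Irs2* the RefSeq spans were 94851, 49275 and 24249 bp, and the deposited gene bodies 89957, 46894 and 20467 bp. These differ by more than the 1 kb left out after the start.

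The members and gene lists were chosen with earlier results of these data known. The names given are the 9 members, per list up to 2 genes with the highest and 2 with the lowest gene body change among called genes, *Igfbp1*, *G6pc*, *Pck1* and *Ppargc1a*, and the active gene most like each member. Genes of this rule that are left out of the text are not reported here. *Hdac3* is named as the deleted gene. *Mlst8*, *Enpp1*, *Foxo6*, *Ywhaz*, *Sirt1*, *Sesn1*, *Sesn3*, *Gadd45b*, *Apoc3*, *Bcl6*, *Pdk4*, *Fbxo32*, *Ccng2*, *Pnpla3*, *Rfwd2*, *Tat*, *Per1*, *Nr3c1*, *Sgk1*, *Cited2*, *Bnip3*, *Des*, *Lyve1*, *Hbb-b1*, *Irs4* and the genes found by the promoter search were chosen after their values or sequences were seen.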

Additional observations from a re-analysis of the deposited data

How the results depend on the processing

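Most values kept their direction and their side of the threshold under the alternatives, namely 135 for the gene body, 115 near the promoter and 93 for the pausing index, while 9, 29 and 33 did not. The 4 gene body calls became 2 without the activity filter, 7 without the fold threshold and 3 with scaling within regions (*Irs1* at -0.52), and numbered 3 to 4 with 1 library left out. The 2 promoter-proximal calls became 0 without the filter, where 0% of all genes were called, and 0 to 1 with 1 library left out, where 3.16% to 29.2% of active genes were called beside 28.0% with all libraries. With scaling within regions, which centres each region on its own genes and so removes the shift of 0.56, they became 1 higher (*Trib1*) and 1 lower (*Irs2*, -0.67). The 2 pausing index calls became 0 with a pseudocount of 0.1, 5 with one of 10, 0 without the filter, 0 with either scaling within regions, and 0 to 5 with 1 library left out, where 0.275% to 42.2% of active genes were called beside 12.9%.

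Of the 72 pathway genes, the 25 promoter-proximal calls became 0 without the filter, 12 with median-of-ratios and 12 with TMM scaling within regions, and 3 to 21 with 1 library left out. Their 17 gene body calls became 7 without the filter and 31 without the fold threshold. With the replicate number as a block, the promoter-proximal calls became 1 for the 9 genes and 9 for the pathway genes, the pausing index calls became 0, and no other count moved by over 1.5 times. Crossing the pairs, an alternative added once the data had been seen, gave counts of 2, 31 and 5.

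With median-of-ratios and with TMM scaling within regions, promoter-proximal log2 fold changes turned at *Insr* (-0.56 and -0.56), *Irs1* (-0.21 and -0.21), *Foxo1* (-0.37 and -0.37), *Foxo3* (-0.41 and -0.41) and *Akt2* (-0.44 and -0.44). Pausing index changes turned at *Insr* (-0.24 and -0.24), *Foxo3* (-0.34 and -0.34), *Akt2* (-0.25 and -0.25) and *Tsc22d3* (-0.036 and -0.035). With 1 library left out, promoter-proximal values ranged from -0.35 to 0.36 at *Insr*, from -0.44 to 0.25 at *Irs2*, from -0.088 to 0.49 at *Foxo1* and from -0.47 to 0.28 at *Tsc22d3*. The gene body value of *Trib1* ranged from -0.049 to 0.12. Beyond the construction of each alternative, the cause was not tested. The log2 ratios kept their direction without any 1 library (*Irs2* to *Irs1* from -0.54 to -0.31, *Foxo3* to *Foxo1* from 0.57 to 0.71). Low promoter-proximal values (under 110 at *Irs1*, *Akt2* and *Tsc22d3*) limit what could be detected there.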
